A study of Homo sapiens with 54 samples.

Results

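The genes described here are the alpha- and beta-tubulin isotypes TUBA1A, TUBA1B, TUBA1C, TUBA4A, TUBB, TUBB2A, TUBB2B, TUBB3, TUBB4B and TUBB6. They were chosen by symbol, with earlier results of these data known, and they are 10 of the 33119 genes named in both count tables. RNA of 6 established human cancer cell lines was sequenced from transcript ends in 54 libraries, which form 18 groups of 3. SW48 and SW620 come from colorectal cancers, NCI-N87 and MKN-45 from stomach cancers, and BT-20 and BT-474 from breast cancers. Set 1 held SW48 and SW620 as controls or with trametinib. Set 2 held both lines as controls, with trametinib or with palbociclib, and the stomach and breast lines as controls or with afatinib. Trametinib blocks the kinases MEK1 and MEK2, palbociclib blocks the kinases CDK4 and CDK6 that drive entry into the cell cycle, and afatinib blocks receptors of the ERBB family. All lines grew in DMEM with fetal bovine serum and antibiotics, per the labels. Doses, exposure times and what the control cultures received are not stated in the labels, and a line is a single cultured population, not a set of tumours.

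Microtubules are hollow fibres built from pairs of 1 alpha- and 1 beta-tubulin, and they form the mitotic spindle, the tracks for transport and the core of cilia. Human cells hold several genes for each partner, whose products differ mostly at the acidic tail, where enzymes add or remove residues and where motors and other proteins bind. Cells also match tubulin RNA to need: when free tubulin is in excess, the factor TTC5 reads the first residues of nascent tubulin on the ribosome and the RNA is degraded. TUBA1B and TUBB are the broadly expressed alpha and beta genes, while TUBA1A, TUBB2A, TUBB2B and TUBB3 are best known from neurons.

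The coding ends of 4 beta genes are shown because they carry the tails in which isotypes differ. Each is the last 60 coding bases before the stop codon of the principal transcript in GENCODE v29 (GRCh38), read 5′ to 3′, with in-frame glutamate codons (gaa or gag) in capitals.
TUBB: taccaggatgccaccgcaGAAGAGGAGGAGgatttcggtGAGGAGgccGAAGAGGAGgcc
TUBB2A: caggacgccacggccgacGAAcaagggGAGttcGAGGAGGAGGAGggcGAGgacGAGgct
TUBB2B: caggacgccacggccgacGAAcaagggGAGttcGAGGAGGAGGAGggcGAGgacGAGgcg
TUBB3: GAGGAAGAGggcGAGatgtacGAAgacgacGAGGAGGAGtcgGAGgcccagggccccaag
The stretches of TUBB2A and TUBB2B differed at 1 of 60 bases. Over the 6 beta genes, glutamate codons numbered 7 to 10 of the last 20 codons, fewest in TUBB6 and most in TUBB4B.

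The coding start is shown for 1 alpha and 1 beta gene, since its first 4 codons, in capitals, encode the residues that TTC5 reads.
TUBA1B: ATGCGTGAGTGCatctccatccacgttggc
TUBB: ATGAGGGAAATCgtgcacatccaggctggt

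Whole coding sequences were 84.4 to 97.2% identical between alpha members and 80.9 to 98.2% between beta members. The 3′ untranslated regions were 11.2 to 44.7% and 11.7 to 46.2% identical. How many of the 3′ end reads fell in them was not measured. No window of 50 bases within the 3′ untranslated region was shared with another gene's transcripts for 9 members. The exception was TUBB3, where 239 of 244 windows also belong to AC092143.1, a transcript that overlaps it and has no line of its own under that name in the tables. Further upstream, windows near the coding end were shared for TUBA1A, TUBA1B, TUBB2A and TUBB4B, so a read there cannot be given to 1 gene. The 3′ untranslated regions of these genes are 214, 176, 194 and 151 bases long. Of 451 windows over the last 500 bases of each transcript, 131, 225, 253 and 103 were shared. TUBA1A (chromosome 12, 49184795 to 49189080), TUBA1B (49127782 to 49131395) and TUBA1C (49227926 to 49274600) are neighbours, and so are TUBB2A (chromosome 6, 3153666 to 3157544) and TUBB2B (3224277 to 3227653). TUBB lies apart on chromosome 6 (30720352 to 30725422), TUBB3 on chromosome 16 (89921925 to 89936097), TUBA4A on chromosome 2 (219249710 to 219254740), TUBB4B on chromosome 9 (137241287 to 137243707) and TUBB6 on chromosome 18 (12307669 to 12329826). Positions are those of RefSeq on GRCh38.

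Libraries held 4063382 to 10622670 counts in set 1 and 3401565 to 12806042 in set 2. Epithelial keratins and adhesion genes were high in every line. CDX2 or VIL1 led the gut list in SW48, SW620, NCI-N87 and MKN-45, with CDX1 at 0 in all but NCI-N87, and that list summed to 5.63 CPM at most in BT-20 and 3.34 CPM in BT-474. The breast list summed to 149 to 156 CPM in BT-20 and 741 to 818 CPM in BT-474, but also to 39.0 to 178 CPM in SW48 and 113 to 287 CPM in SW620 of set 1, against at most 9.29 CPM for these lines in set 2. Of 7 neuron genes SYT1 was the highest in every line (228 CPM in SW620), and STMN2 was at 0 in the controls of SW48, SW620 and MKN-45 in set 2. The third SW620 control of set 1 stood apart in several members, as given with the results. In set 1, genes that mark other lines of the study summed to as much as 21.5% of that line's own level in SW48 with trametinib and 12.1% in its controls, although the median such gene stayed at or under 0.933% and 1.78%. In set 2 that sum was 4.23% at most, and the median such gene stayed at or under 1.17%. The labels do not say whether replicate libraries were grown as separate cultures, so every p-value below is set against a spread that may be only technical.

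In the control libraries of set 2, TUBA1B and TUBB gave most tubulin counts in every line, and the less abundant genes set the lines apart. Levels are given as CPM (counts divided by the library total and put on a common scale), with TMM factors between libraries, as mean ± SD over 3 libraries. The 3′ kit gives about 1 tag per transcript end, so counts were not divided by gene length. Among genes that could be tested, 97.1% differed between the 6 lines in edgeR's quasi-likelihood F test at an adjusted p under 0.05. All 10 members did too, a share that says little about tubulins in particular.

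TUBA1B, a broadly expressed alpha-tubulin, stood at 3639 ± 644 CPM in SW620 and 3245 ± 193 CPM in BT-474, whose libraries overlapped. It was next highest in MKN-45 at 1910.2 ± 104 CPM and SW48 at 1382 ± 142 CPM, and lowest in NCI-N87 at 967 ± 157 CPM and BT-20 at 506 ± 30.7 CPM. The neighbouring gene TUBA1C followed a similar order, from 1483 ± 235 CPM in SW620 and 1427 ± 165 CPM in MKN-45, which overlapped, through 1055 ± 17.2 in BT-474, 676 ± 47.0 in SW48 and 496 ± 64.7 in NCI-N87, down to 366 ± 5.74 CPM in BT-20. TUBB, the main beta-tubulin, spanned less than either, from 2062 ± 62.6 CPM in BT-474 to 596 ± 34.4 CPM in NCI-N87. Between them it stood at 1569 ± 109 CPM in SW620 and 1474 CPM in MKN-45 (1429 to 1542), which overlapped, 1372 ± 40.5 CPM in SW48 and 694 ± 12.6 CPM in BT-20.

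TUBA1A split the lines of set 2 into a high and a low group. Its mean was 49.2 ± 7.88 CPM in BT-474, 39.1 ± 5.19 in SW620 and 37.9 ± 4.25 in SW48, with overlap between neighbours. It was 6.55 ± 2.17 CPM in MKN-45, 5.17 ± 0.621 in BT-20 and 3.74 ± 3.38 in NCI-N87, where neighbours overlapped again and 1 NCI-N87 library had 0 counts. TUBA4A ran differently, with 265 ± 24.4 CPM in SW620 and only 18.8 ± 2.84 CPM in BT-474. MKN-45 at 143 CPM (135 to 158), NCI-N87 at 139 ± 16.6 and BT-20 at 119 ± 6.80 CPM overlapped as neighbours, and SW48 lay below them at 86.2 CPM (79.1 to 90.6).

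Each of the rarer beta genes had its own order of lines in set 2. TUBB3, the neuronal class III isotype, was highest in BT-474 at 219 ± 8.44 CPM and SW48 at 196 ± 19.1 CPM, which overlapped, then SW620 at 81.9 ± 6.36, BT-20 at 47.4 ± 1.17 and NCI-N87 at 36.4 ± 1.69 CPM. MKN-45 was lowest, with 3.80, 0.188 and 9.92 CPM (24, 1 and 70 counts). In set 1 controls TUBB3 stood at 417 ± 83.8 CPM in SW48 and 17.3 ± 4.94 CPM in SW620. TUBB2A was high in SW48 (43.7 ± 5.04 CPM) and BT-474 (39.7 ± 2.90 CPM), which overlapped. It was 10.4 ± 2.52 CPM in NCI-N87 and 7.64 ± 0.333 in SW620, then 5.62 ± 0.822 in MKN-45 and 5.57 ± 0.339 in BT-20, with overlap within each pair. Its close relative TUBB2B was instead highest in SW620 at 59.8 ± 2.52 CPM, followed by NCI-N87 at 40.7 ± 4.91 and SW48 at 36.3 ± 2.49 CPM. BT-474, so high in TUBB2A, had 0, 0 and 21 counts of TUBB2B, and BT-20 and MKN-45 had counts over 1 in a single control library each (26 and 26). In set 1 controls TUBB2B stood at 1.35 ± 1.67 CPM in SW48 and 40.0 ± 39.4 CPM in SW620. TUBB6 was highest in NCI-N87 at 85.9 ± 24.0 CPM, followed by BT-474 at 29.7 ± 3.36 and SW620 at 28.0 ± 1.66, which overlapped, MKN-45 at 16.9 ± 3.90 and BT-20 at 4.44 to 7.85 CPM. It was lowest in SW48, where each control library held 1 count, under the 0.318 CPM that a floor of 3 counts allows. TUBB4B, which is found in cilia and widely elsewhere, varied least of these, from 372 ± 98.1 CPM in MKN-45 to 112 ± 38.4 CPM in NCI-N87. BT-474 held 225 ± 9.91 CPM of it, and SW620 at 184 ± 15.5 overlapped BT-20 at 158 ± 19.0, as SW48 at 129.8 ± 3.03 CPM overlapped NCI-N87.

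**Figure D1:**
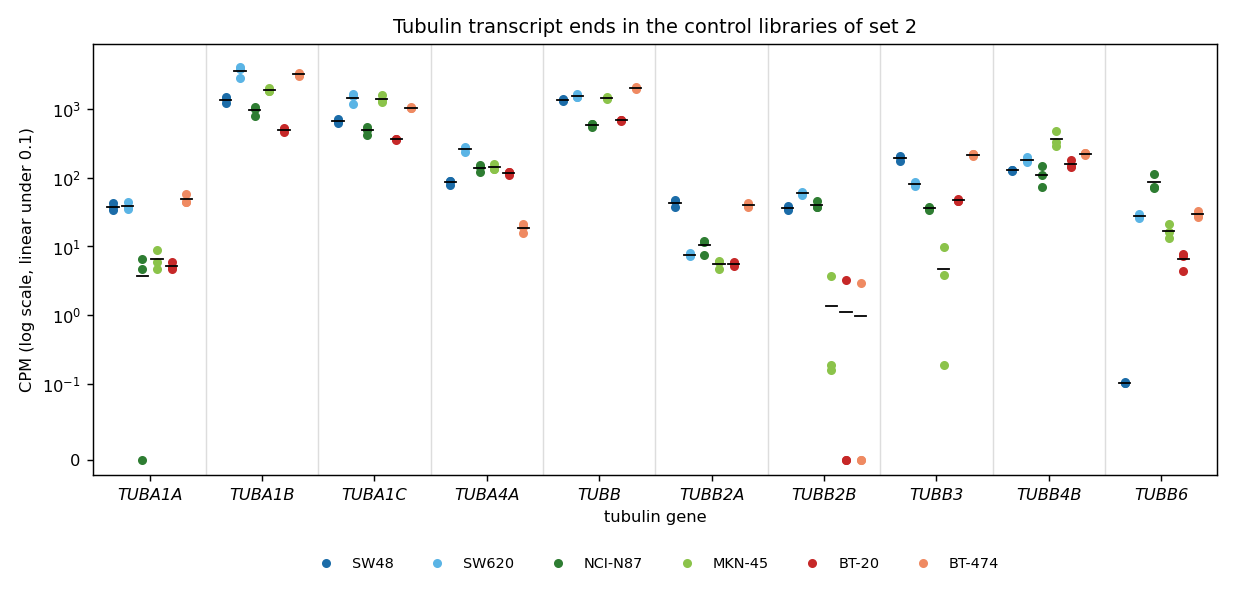
CPM of the 10 tubulin genes (x axis) in the control libraries of set 2, on a log axis that is linear under 0.1. Points are libraries, bars are means of 3 and colours are lines. TUBA1B, TUBA1C and TUBB stand at 359.5 CPM or more in all libraries, while TUBB6 falls to 0.103 CPM in SW48 and TUBB2B to 0 in libraries of BT-20 and BT-474.

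Of the counts of the 4 alpha members, TUBA1B held 50.8 to 74.3% on average in the 6 lines of set 2 and TUBA1C 24.2 to 40.9%. BT-20 had the largest TUBA4A share at 11.9 ± 0.860% and BT-474 the smallest at 0.432 ± 0.0743%. Among the 6 beta members TUBB held 67.9 to 81.3%. NCI-N87 gave 9.65 ± 1.76% of its beta counts to TUBB6, SW48 10.2 to 11.7% to TUBB3 and MKN-45 19.7 ± 3.57% to TUBB4B.

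**Figure D2:**
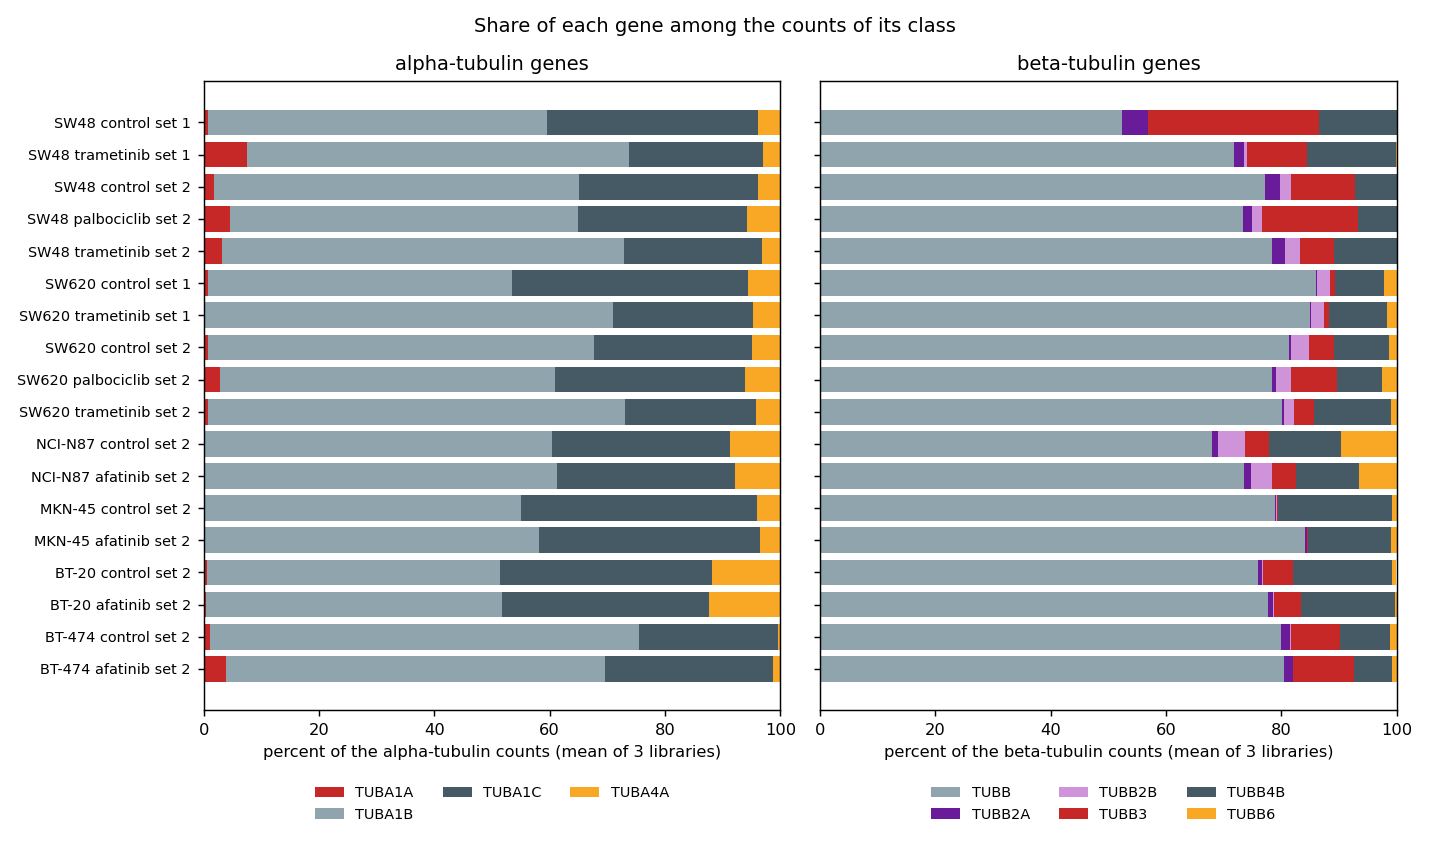
Share of each gene, in percent, among the counts of the alpha members (left) and of the beta members (right), as the mean of the 3 libraries of each of the 18 groups (rows). TUBA1B and TUBB are the largest parts of every bar. In SW620 controls of set 1 the mean TUBA1B share of 52.8% includes the library at 19.8%.

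In SW48, trametinib was followed in both sets by more TUBA1A, TUBA1B, TUBA1C, TUBA4A, TUBB, TUBB2B and TUBB4B RNA and less TUBB3 RNA. In set 1 all 10 members passed the test, 8 higher and 2 lower, where 16% of all genes were called higher and 19.4% lower. TUBB6 and TUBB2B passed the count filter there only through the trametinib libraries, so the filter favoured their being called higher. Set 2 had 7 members called higher and 1 lower of the 9 that could be tested, where 30.1% of genes were called higher and 30.1% lower. The median member log2 fold change was 0.78 in set 1 and 0.37 in set 2, against 0.01 over all genes in both. A called gene is one with an adjusted p under 0.05 in edgeR's quasi-likelihood test over all genes tested.

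TUBA1A, an alpha-tubulin best known from growing neurons, changed most of the members after TUBB6 in set 1. In set 2 TUBA1A changed most of those tested, and in both sets it started from a low control level. Its control libraries of set 1 held 1.56, 14.5 and 19.8 CPM (9, 102 and 151 counts) and those with trametinib 303, 140.1 and 225 CPM. The lowest treated library lay far above the highest control, with a log2 fold change of 4.19 (SE 0.62, adjusted p = 0.0015). In set 2 the controls stood at 37.3, 34 and 42.4 CPM and the treated libraries at 119.8, 112 and 96.4 CPM. That difference, 1.51 on the log2 scale (SE 0.10, adjusted p = 5.2e-08), was smaller than in set 1, but the sets were not tested against each other. TUBA1A counts went from 0.850 ± 0.657% to 7.51 ± 2.06% of alpha counts in set 1 and from 1.74 ± 0.132% to 3.15 ± 0.0360% in set 2.

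TUBA1B, which supplies most alpha counts, stood at 737, 818 and 841 CPM in set 1 controls and 2184, 1824 and 1786 CPM with trametinib (log2 fold change 1.28, SE 0.10, adjusted p = 5.6e-05). In set 2 it was 1506, 1228 and 1414 CPM against 2678, 2448 and 2147 CPM (0.79, SE 0.09, adjusted p = 5.0e-06). Control and treated libraries were apart in both sets. TUBA1C rose by less, 0.45 (SE 0.09) in set 1 and 0.27 (SE 0.07) in set 2, and its share of alpha counts went from 36.6 ± 1.55 to 23.2 ± 1.12% and from 31.0 ± 1.20 to 23.8 ± 0.330%. TUBA4A rose by 0.77 (SE 0.10) and 0.37 (SE 0.07). With all groups of a set in 1 fit, TUBA1B (1.27, adjusted p = 0.11) and TUBA1C (0.44, adjusted p = 0.064) lost their set 1 calls and TUBA1C its set 2 call (0.29, adjusted p = 0.068). Summed over the 4 alpha genes, 1361 ± 99.8 CPM in controls compared with 2918 ± 337 CPM in set 1, and 2183 ± 190.2 with 3471 ± 352 CPM in set 2 (sums not tested).

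On the beta side the main gene TUBB rose from 632, 712 and 846 CPM to 1202, 1247 and 1293 CPM in set 1 (0.78, SE 0.11, adjusted p = 9.8e-04). In set 2 it went from 1375, 1411 and 1330.0 CPM to 1534, 1668 and 1643 CPM (0.22, SE 0.05, adjusted p = 0.0033). These libraries did not overlap either, though the set 2 change was small. TUBB4B rose from 183 ± 8.16 to 267 ± 23.9 CPM in set 1 (0.55, SE 0.09) and from 129.8 ± 3.03 to 227 ± 59.3 CPM in set 2 (0.79, SE 0.13). One treated library of set 2, at 295 CPM, lay well above the other two at 199 and 188 CPM. The set 1 call of TUBB4B was lost with all groups in 1 fit (0.54, adjusted p = 0.59).

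TUBB3 moved the other way. In set 1 it fell from 328, 428 and 495 CPM to 174, 168 and 198 CPM (log2 fold change −1.20, SE 0.15, adjusted p = 6.7e-04). In set 2 it fell from 211, 202 and 174 CPM to 118, 119.6 and 123 CPM (−0.72, SE 0.07, adjusted p = 3.2e-06). Every treated library lay below every control of its set. TUBB3 thus went from 29.7 ± 2.06 to 10.3 ± 0.546% of beta counts in set 1 and from 10.2 to 11.7% in controls to 5.83 ± 0.318% in set 2.

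The paired class II genes separated. TUBB2A fell in set 1 from 56.6, 53.0 and 78.4 CPM to 35.8, 31.6 and 24.0 CPM (−1.03, SE 0.20, adjusted p = 0.0058). In set 2 it was 43.7 ± 5.04 CPM in controls and 46.1 ± 2.36 CPM with the drug, with overlap (0.06, SE 0.09, adjusted p = 0.59). TUBB2B rose in both sets, from 36.3 ± 2.49 to 55.1 ± 2.93 CPM in set 2 (0.58, SE 0.08, adjusted p = 3.0e-05). In set 1 the TUBB2B counts were low, 2, 3 and 25 in controls and 28, 51 and 52 with trametinib (2.65, SE 0.77, adjusted p = 0.029), and that call was lost without control 1 or 2 or treated library 2 or 3 (log2 fold change 2.22 to 4.42 over the alternatives, adjusted p up to 0.1). With all groups in 1 fit TUBB2B was called in neither set (adjusted p = 0.097 and 0.3). SW48 controls thus held 1.35 ± 1.67 CPM of TUBB2B in set 1 and 36.3 ± 2.49 CPM in set 2.

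TUBB6, the rarest member in SW48, had 0, 1 and 0 counts in set 1 controls and 34, 17 and 25 counts with trametinib. The ratio of summed counts per library total was 113, with a wide 95% exact Poisson interval of 19.7 to 4531 that covers counting error only. The adjusted p of the edgeR test was 7.3e-04. TUBB6 passed the count filter only through the treated libraries, so its direction was fixed beforehand. In set 2 TUBB6 was not tested in SW48, with 2, 2 and 5 counts under trametinib and 1 in each control. Library quality moved with the drug in SW48. In set 1 the genes of other lines summed to their highest value with trametinib, given above, and reads not aligned were 42.4 to 47.5% with the drug against 22.4 to 38.0% in controls. The mitochondrial ribosomal RNAs took 4.64 to 5.64% of counts against 1.63 to 3.81%. In set 2 the highest such sum was 4.23% with trametinib and 4.09% with palbociclib against 0.236% in controls. The median such gene stayed at or under 0.199% with trametinib, 0.153% with palbociclib and 0.161% in controls. For the BT-20 genes behind the 4.09%, the other palbociclib libraries stood at 0.208 and 0.263%. Mitochondrial ribosomal RNAs took 2.25 to 3.33% and 2.93 to 4.52% of counts in set 2 against 0.97 to 1.6%. The part of these measures in the tubulin results of SW48 was not tested.

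In SW620 no member passed the test with trametinib in either set. In set 1 edgeR called no gene at all, 0% higher and 0% lower of those tested, against 366 genes with an unadjusted p under 0.05 and 14 called by DESeq2. Set 2 likewise gave 0% higher and 0% lower, with 2204 genes under the unadjusted threshold and 208 called by DESeq2. None of the members had an unadjusted p under 0.05 in set 1 and 5 had in set 2.

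Set 1 rests on a control group that did not hold together. TUBA1B stood at 2813 and 3272 CPM in the first and second SW620 controls and at 425 CPM in the third, and TUBB4B at 244, 209 and 20.1 CPM. TUBB2B was 82.4, 33.0 and 4.48 CPM, while TUBB (1384, 1588 and 2104 CPM) and TUBA1C (1107, 1139 and 1529.8 CPM) were not low there. In the third library TUBA1B made up 19.8% of alpha counts, against 67.7 and 70.8% in the others. That library had 0.338% of reads not aligned, against 2.96 and 4.68%, and 23.8% of aligned reads with more than 1 alignment, against 17 and 19%. Genes that mark MKN-45 summed to 9.59% of that line's level in it, against 0.847 and 0.553% in the other controls. For genes that mark BT-474 the sums were 9.30% against 8.92 and 1.35%. Without the third control, trametinib still called none of the members in SW620: TUBA1B changed by −0.06 (SE 0.09) and TUBA1A by −0.79 (SE 0.52).

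In set 2, TUBB4B had the largest difference of the members in SW620, from 169.7, 181 and 200.3 CPM to 225, 377 and 369 CPM (log2 fold change 0.81, SE 0.18, unadjusted p = 0.0014, adjusted p = 0.22). The groups did not overlap, and the first treated library was closest to the controls. TUBA1B stood at 3838, 4159.6 and 2919 CPM in controls and at 4678, 5010.5 and 4786 CPM with trametinib (0.40, SE 0.13, adjusted p = 0.23). TUBB2B was 59.8 ± 2.52 CPM in controls and 54.3, 35.7 and 25.9 CPM with the drug (−0.63, SE 0.22, adjusted p = 0.23). With the first trametinib library left out, TUBA1A, TUBB2B and TUBB4B were called. Leaving out single libraries also raised the number of all genes called in SW620, as given at the end, so these calls are not particular to tubulins. TUBB4B was also called by DESeq2.

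The change in SW620 minus the change in SW48 was tested for each gene. In set 1 the trametinib effect on TUBA1A was lower in SW620 than in SW48 (log2 difference −5.36, SE 0.99, adjusted p = 0.0092). TUBA1C (−0.77, adjusted p = 0.048), TUBA4A (−0.75, adjusted p = 0.049) and TUBB6 (−6.61, adjusted p = 1.3e-04) were also called, the last against a near absence in SW48 controls. That made 0 members higher and 4 lower, where 3.95% of genes were called higher and 2.78% lower. The count rested on which libraries were used: it was 10 without the third SW620 control and 2 without any 1 of the SW48 or SW620 trametinib libraries or any SW48 control. Set 2 gave TUBA1A (−1.09, SE 0.20, adjusted p = 0.0013) and TUBB2B (−1.20, SE 0.25, adjusted p = 0.0029) a lower effect in SW620 and TUBB3 a higher one (0.82, SE 0.15, adjusted p = 8.9e-04), where 15.3% of genes were called higher and 12.9% lower. The difference for TUBA1B in set 2 missed the threshold (−0.37, SE 0.17, adjusted p = 0.13). With all groups in 1 fit, TUBB2B (adjusted p = 0.16) and TUBB3 (0.096) were no longer called and TUBA1A still was.

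**Figure D3:**
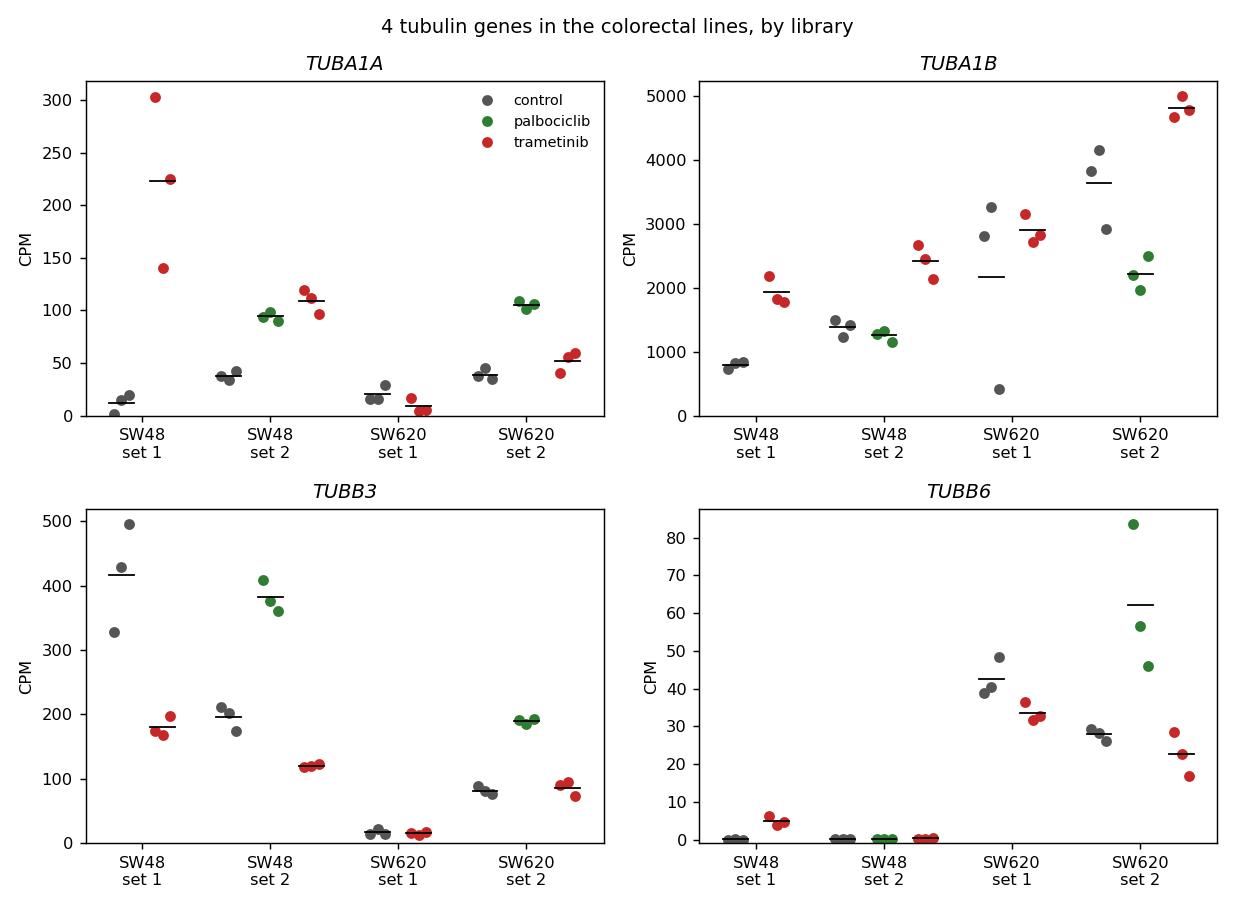
CPM of TUBA1A, TUBA1B, TUBB3 and TUBB6 in every library of SW48 and SW620, by set (x axis) and drug (colour), with bars at the mean of 3. TUBA1A lies between 90.4 and 119.8 CPM in SW48 with either drug in set 2, above controls of at most 42.4 CPM. TUBB3 is above its controls with palbociclib in both lines and below them with trametinib in SW48. The SW620 control of set 1 at 425 CPM of TUBA1B stands apart.

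Palbociclib was followed by more TUBA1A and TUBB3 RNA in both colorectal lines. In SW48 it had 4 members called higher and 1 lower of 9 tested, where 28.3% of genes were higher and 29.2% lower. In SW620 it had 5 higher and 1 lower of 10, where 17.6% of genes were higher and 17.4% lower. These comparisons share their controls with those of trametinib in set 2. In SW620 the genes of other lines summed to 3.82% at most with palbociclib against 0.194% in controls, a difference whose part in the results was not tested. The median such gene stayed at or under 0.583% with palbociclib and 0.259% in controls. Mitochondrial ribosomal RNAs took 2.86 to 3.22% of counts in SW620 against 1.36 to 3.51%.

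TUBA1A went from the control values above to 94.2, 98.4 and 90.4 CPM in SW48 (log2 fold change 1.30, SE 0.08, adjusted p = 1.1e-08). In SW620 it went from 37.7, 44.9 and 34.9 CPM to 109, 101 and 106 CPM (1.45, SE 0.10, adjusted p = 4.7e-06). The lines ended at nearly the same level, and the difference between their effects missed the threshold (0.16, SE 0.14, adjusted p = 0.44). TUBB3 rose to 409, 376 and 361 CPM in SW48 (0.95, SE 0.08, adjusted p = 9.1e-08). In SW620 it rose from 88.7, 80.7 and 76.2 CPM to 192, 185 and 193 CPM (1.23, SE 0.08, adjusted p = 3.7e-06). No treated library overlapped a control, and the share of beta counts went from 10.2 to 11.7% in controls to 16.5 ± 0.306% in SW48 and from 4.24 ± 0.175 to 7.93 ± 0.202% in SW620.

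TUBA1B did not share that rise. In SW620 it fell from 3838, 4159.6 and 2919 CPM to 2197, 1970.1 and 2504 CPM (−0.69, SE 0.13, adjusted p = 0.0025). SW48 had 1285, 1328 and 1159 CPM, within reach of its controls (−0.15, SE 0.07, adjusted p = 0.11). The difference between lines was −0.53 (SE 0.17, adjusted p = 0.029), a call that was lost without the second SW48 control, the first or second SW48 palbociclib library, the first or second SW620 control or the second SW620 palbociclib library (adjusted p up to 0.074 over the alternatives). TUBB rose slightly in both lines, by 0.29 (SE 0.06) in SW48 and 0.28 (SE 0.09, adjusted p = 0.027) in SW620, where the call was lost without the second control or any palbociclib library (adjusted p up to 0.093 over the alternatives). TUBA1C was called lower in SW48 (−0.16, SE 0.06, adjusted p = 0.045), a value so near the threshold that it was lost without control 1 or 3 or any palbociclib library (adjusted p up to 0.38 over the alternatives).

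Other changes passed the test in 1 line. TUBA4A rose in SW48 from 88.8, 79.1 and 90.6 CPM to 125, 128 and 116 CPM (0.50, SE 0.07, adjusted p = 4.1e-05) and stood at 265 ± 24.4 and 240.3 ± 17.4 CPM in SW620. That difference between lines passed its test (−0.61, SE 0.12, adjusted p = 0.0013). TUBB2A rose in SW620 from 7.51, 7.39 and 8.02 CPM to 15.4, 11.7 and 16.8 CPM (0.95, SE 0.17, adjusted p = 0.0016) and not in SW48 (−0.22, SE 0.10, adjusted p = 0.08), again with a tested difference (1.18, SE 0.20, adjusted p = 4.1e-04). Over all genes the palbociclib effect was called higher in SW620 for 14.6% and lower for 11.2%. TUBB6 rose in SW620 from 29.4, 28.3 and 26.1 CPM to 83.5, 56.6 and 46.1 CPM (1.17, SE 0.18, adjusted p = 7.2e-04), with 1 library well above the rest. In SW48 its counts were 2, 1 and 1 with palbociclib, at the floor.

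Set directly against each other in the same set, the 2 drugs left different tubulin profiles. In SW48, trametinib libraries held more TUBA1B than palbociclib libraries (log2 fold change 0.94, SE 0.08, adjusted p = 6.4e-07) and less TUBB3 (−1.68, SE 0.06, adjusted p = 2.5e-10). The difference in TUBA1A missed the threshold (0.20, SE 0.08, adjusted p = 0.057). In all 4 members were higher and 1 lower of 9, where 21.0% of genes were higher and 20.9% lower. In SW620, TUBA1B (1.11, SE 0.09) was again higher with trametinib, as were TUBB4B (0.77, SE 0.19) and TUBA4A (0.25, SE 0.08, adjusted p = 0.04). TUBA1A (−1.03, SE 0.14), TUBB2A (−0.81, SE 0.18), TUBB3 (−1.14, SE 0.10) and TUBB6 (−1.46, SE 0.23) were lower, where 15.9% of genes were higher and 16.7% lower. The call of TUBB4B in SW620 was lost without the second palbociclib or second trametinib library (adjusted p up to 0.055), and that of TUBA4A also without any other library of these groups but the first trametinib one (up to 0.16). The call of TUBB2A in SW48 (0.28, SE 0.09, adjusted p = 0.025) was lost without palbociclib library 1 or 3 or trametinib library 2, with DESeq2 and with all groups in 1 fit (adjusted p up to 0.11), where TUBB2B was lost too (0.52).

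**Figure D4:**
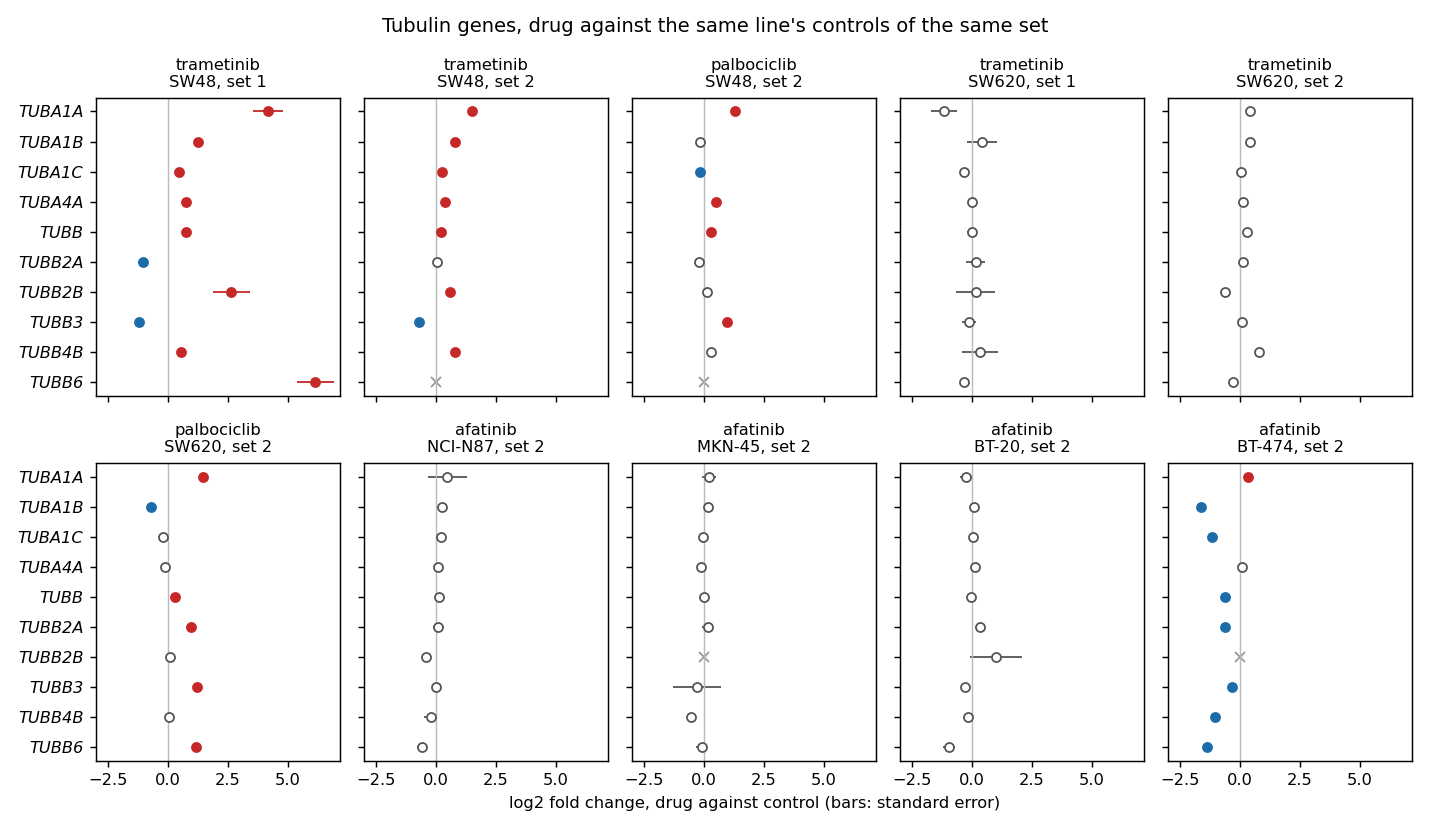
Log2 fold changes of the 10 genes (rows) for each drug against the same line's controls of the same set (10 panels), with bars of 1 standard error. Filled red and blue points passed the test as higher and lower, open points did not, and crosses mark genes with too few counts to test. The TUBB6 point at 6.16 in SW48 of set 1 rests on 1 control count and its size depends on the fit's prior count. TUBA1A is called higher in SW48 with both drugs, in SW620 with palbociclib and in BT-474 with afatinib.

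With afatinib, tubulin RNA fell in BT-474 and did not pass the test in the other 3 lines. BT-474 had 1 member called higher and 7 lower of 9 tested, where 20.9% of genes were called higher and 21.8% lower. The median member log2 fold change was −0.65, against 0.01 over all genes. TUBA1B fell most in absolute level, from 3068, 3214 and 3451 CPM to 1074, 1088 and 966 CPM (−1.63, SE 0.07, adjusted p = 5.4e-09). TUBA1C fell from 1041, 1050.2 and 1074 CPM to 471, 501 and 422 CPM (−1.17, SE 0.07, adjusted p = 8.0e-08). All treated libraries lay below all controls for both genes. The summed alpha level was 4368 ± 217 CPM in controls and 1589.6 ± 111 CPM with afatinib (not tested).

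The 5 beta genes that could be tested fell too, with log2 fold changes from −0.34 to −1.39. TUBB went from 1995, 2119 and 2072 CPM to 1208, 1352 and 1383 CPM (−0.64, SE 0.06, adjusted p = 8.3e-06), and TUBB4B from 214, 229 and 232 CPM to 117, 109 and 102 CPM (−1.03, SE 0.07, adjusted p = 2.9e-07). TUBB6 fell from 29.1, 33.3 and 26.7 CPM to 12.6, 13.5 and 7.89 CPM (−1.39, SE 0.17, adjusted p = 4.6e-05). These 3 genes and TUBB2A (−0.65, SE 0.10) had no overlap between groups. TUBB3 fell only from 209, 222 and 225 CPM to 166, 174 and 175 CPM (−0.34, SE 0.06, adjusted p = 7.2e-04), and was not called with all groups in 1 fit (adjusted p = 0.31). Its share of beta counts was 8.49 ± 0.131% in controls and 10.5 ± 0.257% with afatinib.

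TUBA1A was the only member called higher in BT-474. It stood at 44.8, 44.6 and 58.3 CPM in controls and 62.6, 66.5 and 58.5 CPM with afatinib (0.35, SE 0.11, adjusted p = 0.022). The lowest treated library was only just above the highest control, and the call was lost without the first or second library of either group (adjusted p up to 0.31 over the alternatives). As TUBA1B and TUBA1C fell, the TUBA1A share of alpha counts went from 1.12 ± 0.126 to 3.94 ± 0.0774%. TUBA4A did not fall either, at 18.8 ± 2.84 and 19.5 ± 2.15 CPM (0.06, SE 0.14, adjusted p = 0.77). Its share of alpha counts went from 0.432 ± 0.0743 to 1.22 ± 0.0515%. TUBB2B was not tested, with 20 counts in 1 treated library and 0 in the others.

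In BT-20 no member passed the test with afatinib, where 0.273% of genes were called higher and 0.312% lower. TUBA1B was 472, 531 and 515 CPM in controls and 495, 564 and 546 CPM with the drug (0.09, SE 0.06, adjusted p = 0.63). TUBB6 was 7.85, 7.21 and 4.44 CPM against 2.99, 3.23 and 3.77 CPM, without overlap but at 20 to 59 counts a library (−0.95, SE 0.26, adjusted p = 0.14). TUBB3 was 47.4 ± 1.17 and 38.7 ± 3.32 CPM, also without overlap (−0.29, SE 0.09, adjusted p = 0.18).

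The response of BT-474 differed from that of BT-20 for 5 members, all lower in BT-474. They were TUBA1B (−1.73, SE 0.10, adjusted p = 1.6e-09), TUBA1C (−1.23, SE 0.09, adjusted p = 2.5e-08), TUBB (−0.60, SE 0.08), TUBB2A (−0.99, SE 0.19) and TUBB4B (−0.87, SE 0.13, adjusted p = 1.3e-04). Over all genes 10.2% were called higher and 13.6% lower in that test. TUBB3 (−0.07, SE 0.10, adjusted p = 0.66) and TUBB6 (−0.46, SE 0.34, adjusted p = 0.35) missed the threshold between the breast lines, and TUBB4B missed it with all groups in 1 fit (adjusted p = 0.079).

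In the stomach lines edgeR called no gene, 0% higher and 0% lower in NCI-N87 and 0% and 0% in MKN-45. In NCI-N87 1523 genes had an unadjusted p under 0.05 and DESeq2 called 37, and in MKN-45 664 and 0. TUBB6, at its highest in NCI-N87, was 70.2, 74.1 and 114 CPM in controls and 55.0, 48.1 and 69.4 CPM with afatinib (−0.58, SE 0.21, adjusted p = 0.37). These groups lay just apart, and TUBB6 was called when the first NCI-N87 control was left out. Leaving out single libraries also raised the number of all genes called in NCI-N87, as given at the end. TUBB4B in MKN-45 was 339.8, 482 and 294 CPM against 227, 269.7 and 262 CPM (−0.54, SE 0.16, adjusted p = 0.82). Between the stomach lines no member's difference in effect was called, where 0.00725% of genes were called higher and 0.00725% lower (1 each, and 36 by DESeq2, with 1578 genes under an unadjusted p of 0.05).

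**Figure D5:**
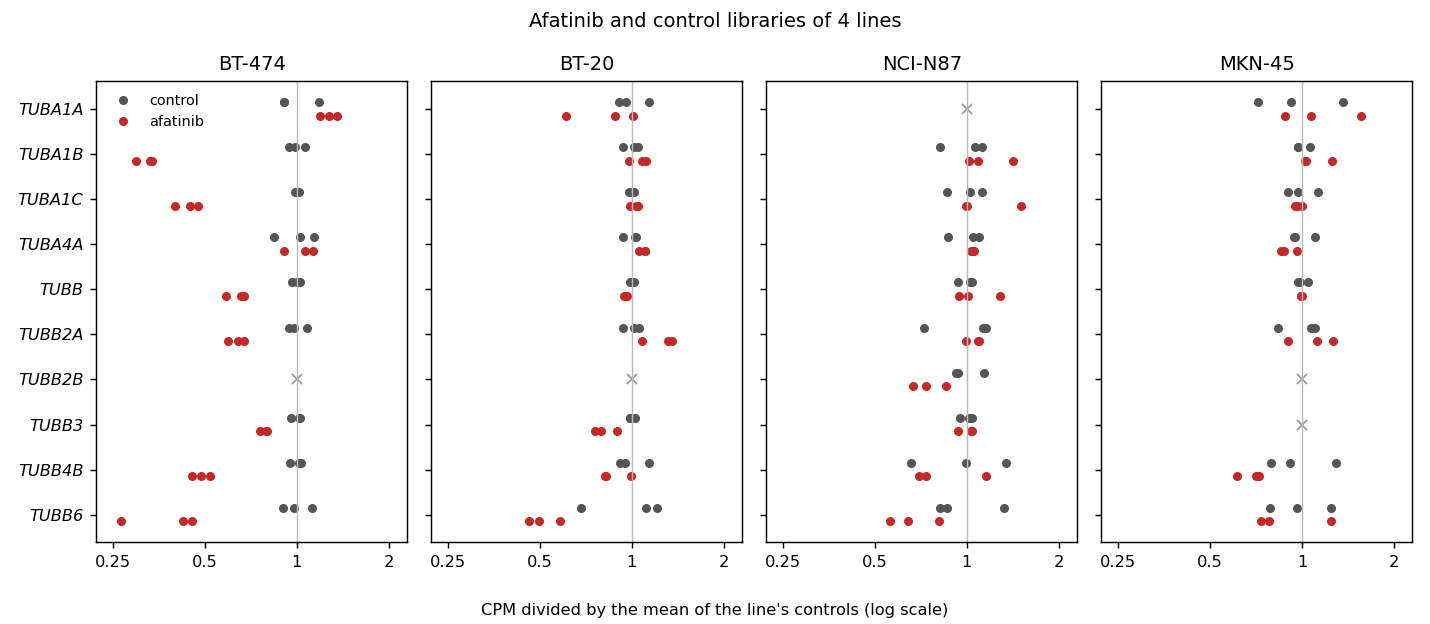
Level of each gene in every control (grey) and afatinib (red) library of BT-474, BT-20, NCI-N87 and MKN-45, divided by the mean of the line's controls, on a log axis. Crosses mark genes with a library at or under 3 counts. In BT-474 all afatinib libraries of TUBA1B, TUBA1C, TUBB, TUBB2A, TUBB3, TUBB4B and TUBB6 lie below all controls, and those of TUBA1A just above.

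Other genes of the tubulin pathway and of mitosis moved with some of these changes. Their counts are set against the shares over all genes, which were 16% higher and 19.4% lower for trametinib in SW48 of set 1, 30.1% and 30.1% in set 2, 28.3% and 29.2% for palbociclib in SW48, 17.6% and 17.4% in SW620, and 20.9% and 21.8% for afatinib in BT-474. Of 20 mitotic genes tested, 20 fell in BT-474 with afatinib (median −2.61, against 0.01 over all genes), among them KIF20A, a mitotic kinesin (−3.69, SE 0.17), PLK1 (−3.53, SE 0.16) and AURKB (−3.33, SE 0.12), both mitotic kinases. With trametinib in SW48, 19 rose in set 1 (median 1.09) and 15 in set 2 (median 0.32), including the proliferation marker MKI67 (2.99, SE 0.20, and 0.78, SE 0.06) and CENPE, a kinetochore motor (2.67 and 0.83). With palbociclib 16 fell in SW48 (median −0.47) and 19 in SW620 (median −0.64), AURKB by 0.98 and 1.03. TUBA1B rose or fell in the direction of this list where both were called, while TUBA1A and TUBB3 rose with palbociclib. The part of cell-cycle position in the tubulin results was not tested.

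Factors that fold tubulin fell widely in BT-474 with afatinib: 14 of 20 tested were lower and 1 higher (median −0.33). CCT5, a subunit of the chaperonin that folds tubulin, fell by 1.07 (SE 0.05), VBP1, a subunit of prefoldin, by 0.84 (SE 0.09) and TBCA, a beta-tubulin cofactor, by 0.58 (SE 0.05). In SW48 the same list was mixed, 6 higher and 3 lower in set 1 and 6 higher and 10 lower in set 2 with trametinib, 5 higher and 8 lower with palbociclib. The 30% higher in set 2 and 25% higher with palbociclib were at or under the shares of all genes, and the 50% and 40% lower were above them. PFDN5 of prefoldin rose in each of these (0.65, 0.74 and 0.87), while CCT4 fell by 0.53 in set 1 and by 0.63 with palbociclib. Prefoldin subunits went both ways: PFDN2 fell with trametinib in set 2 (−1.01, SE 0.07) and in SW620 with palbociclib (−0.79, SE 0.09). TBCD had the largest change named in set 1 (1.52, SE 0.21). In SW620 with palbociclib 1 was higher and 4 lower. None was called in the remaining comparisons with a control.

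Enzymes that modify tubulin and genes of its autoregulation, 13 to 16 of them tested, gave 6 higher and 2 lower in SW48 with trametinib in set 1, 7 and 4 in set 2, and 6 and 2 with palbociclib. The shares higher were 42.9, 46.7 and 40%, above those of all genes, and the shares lower were 14.3, 26.7 and 13.3%, below them. In SW620 with palbociclib 0 were higher and 5 lower. AGBL5, which trims glutamates from tubulin tails, rose in SW48 in each (2.51, 0.97 and 0.79) and fell in SW620 with palbociclib (−0.64, SE 0.13). AGTPBP1, of the same list, went the other way in SW48, by −0.88 (SE 0.10) with trametinib in set 2 and −1.58 (SE 0.08) with palbociclib. TTL, which restores the terminal tyrosine of alpha-tubulin, fell in SW48 of set 1 (−1.39, SE 0.12) and in SW620 with palbociclib (−0.48, SE 0.09). ATAT1, the alpha-tubulin acetyltransferase, rose in BT-474 (0.53, SE 0.10), where 4 of 16 were higher, a share of 25% near that of all genes, and 1 lower.

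Among genes of microtubule dynamics, 11 of 26 fell and 2 rose in BT-474, led by the spindle factor TPX2 (−3.33, SE 0.10) and the depolymerising kinesin KIF2C (−2.62, SE 0.11). Palbociclib lowered 14 of 24 in SW48 and 9 of 25 in SW620, with 5 and 2 higher. KIF2C fell in both lines (−0.85 and −0.61), and so did MAP1B, a microtubule-associated protein of neurons (−0.75 and −0.94). With trametinib in SW48 the list had 5 higher and 4 lower of 24 in set 1 (20.8% and 16.7%) and 6 and 8 of 24 in set 2 (25% and 33.3%), all near the shares of all genes. In set 2 MAP1B fell by 1.81 (SE 0.10) and STMN1, a tubulin-binding destabiliser, rose by 0.59 (SE 0.07).

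Of 12 other tubulin genes 5 or 6 were tested in each drug comparison. TUBE1, the centriolar epsilon-tubulin, fell in SW48 by 2.0 (SE 0.11) with trametinib in set 2 and by 1.79 (SE 0.11) with palbociclib, while TUBG2, a gamma-tubulin, rose (0.36 and 0.57). TUBG2 also rose in BT-474 with afatinib (0.75, SE 0.14), where TUBG1, another gamma-tubulin, fell by 0.59 (SE 0.07). TUBB8, TUBA3C, TUBA3D and TUBA3E were at 0 in all control libraries of set 2.

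Across the 14 groups of set 2, members' mean log2 CPM ran together to different degrees. Pearson's r was 0.91 for TUBA1B with TUBA1C, 0.83 for TUBA1A with TUBB and 0.81 for TUBA1B with TUBB. It was 0.27 for the close relatives TUBB2A and TUBB2B and −0.56 for TUBB2A with TUBB6. These are descriptions over groups that share lines and controls, so most of the spread is between lines.

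The genes most like each member by the same measure were sought among the 7487 or 7488 other genes whose log2 CPM averaged 4 or more, for members whose means spanned at least 2 log2 units. TUBB (1.79) and TUBB4B (1.95) spanned less. For TUBA1B, with a span of 3.25, they were SRSF3 (0.953), RAN (0.952) and CDK2 (0.935). TUBA1C had MRPL11 (0.962), MRPL20 (0.955) and ZNF207 (0.952). TUBA1A, spanning 5.76, had CHMP7 (0.934), AP1S2 (0.927) and KDM7A (0.923). For TUBA4A they were PAX8-AS1 and APOBEC3C (both 0.972) and RNF121 (0.963), of which PAX8-AS1 is an antisense RNA, and use of strand in the counting is not given. TUBB2A was closest to RAB11FIP3 (0.930) and TUBB2B to SPTLC1 (0.961). TUBB3, spanning 7.53, was closest to LZTR1 (0.939) and PPP2CB (0.938), and TUBB6, spanning 7.91, to RTN4 (0.943) and SMAP1 (0.942).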

How the data were processed

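Libraries were made from 500 ng of RNA with the Lexogen QuantSeq 3′ kit, per the labels. Trimmomatic, STAR, featureCounts and build hg38 are named in the submitters' processing notes, with versions and settings not stated. Raw counts per gene symbol were deposited by the authors in a smaller and a larger table. The table of set 1 has 5 further lines of reads given to no gene, left out of all totals, and its 12 libraries recur with identical values in the larger table, where they were not used.

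Groups were taken from the labels. Only the groups being compared entered a fit, made in R 4.3.3 with edgeR 4.0.16 (filterByExpr with a minimum count of 10 and minimum total of 15, TMM, two-sided quasi-likelihood F test), with Benjamini-Hochberg adjustment over all genes tested and a threshold of 0.05. Standard errors were derived from the F statistic. CPM used TMM over a set. Alternatives were DESeq2's size factors, DESeq2 1.42.0, no count filter, all groups of a set in 1 fit, a replicate block, leaving out single libraries and a robust dispersion, which was chosen after seeing the data. The floor of 3 counts and the intervals cover counting error only. A gene marked another line if it reached 100 CPM there while staying under 1 CPM in the line sequenced, both in set 2 controls.

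Coding ends of the alpha genes are not reported here. All 10 members were named with their control levels in every line. Of each list the called genes with the largest changes were named, up to 3, at a mean log2 CPM of at least 4. The members and lists were chosen with earlier results of these data known. Python 3.11.15 with matplotlib 3.10.9 drew the figures.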

Additional observations from a re-analysis of the deposited data

Results flagged for a closer look

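Drug effects on 15 member results differed between lines of the same tissue by a test of the difference itself. For trametinib in set 1, SW620 minus SW48, they were TUBA1A (−5.36), TUBA1C (−0.77), TUBA4A (−0.75) and TUBB6 (−6.61, with 1 count in the SW48 controls), all log2 differences. Over all genes 3.95% were called higher and 2.78% lower there. The calls of TUBA1C and TUBA4A were lost under 11 and 13 of 18 alternatives. In set 2 trametinib gave TUBA1A (−1.09), TUBB2B (−1.20) and TUBB3 (0.82), where 15.3% of all genes were called higher and 12.9% lower. Palbociclib gave TUBA1B (−0.53), TUBA4A (−0.61) and TUBB2A (1.18) for SW620 minus SW48, where 14.6% of all genes were called higher and 11.2% lower. That call of TUBA1B was lost under 7 of 18 alternatives. Afatinib in BT-474 minus BT-20 gave TUBA1B (−1.73), TUBA1C (−1.23), TUBB (−0.60), TUBB2A (−0.99) and TUBB4B (−0.87), where 10.2% of all genes were called higher and 13.6% lower. TUBA1A appears with the same sign in both sets for trametinib, and no member was flagged for the stomach lines.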

How the results depend on the processing

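Of 64 called member results, 44 kept their call under every alternative run for them, 20 lost it under at least 1 and 0 reversed. The counts of members called moved by over 1.5 times in these cases, and the cause was not tested. A joint fit of every group of a set gave 6 for trametinib in SW48 of set 1 (from 10, with 2227 genes called in place of 4331), 2 for trametinib in SW620 of set 2 (from 0), 1 for the trametinib difference between lines in set 2 (from 3) and 3 for trametinib against palbociclib in SW48 (from 5). Without a count filter they were 2 for trametinib in SW620 of set 2, 8 for palbociclib in SW48 (from 5), 1 for afatinib in BT-20 (from 0) and 2 for the trametinib difference in set 1 (from 4). DESeq2 called 1 for trametinib in SW620 of set 2. Leaving out single libraries gave 0 to 3 for trametinib in SW620 of set 2, the 3 without the first trametinib library, 0 to 1 for afatinib in NCI-N87, the 1 without the first control, and 2 to 10 for the trametinib difference in set 1, the 10 without the third SW620 control. All-gene counts moved too: with no filter, DESeq2 and all groups in 1 fit they were 398, 208 and 632 for trametinib in SW620 of set 2 (from 0), 197, 37 and 1427 for NCI-N87 (from 0), 497, 163 and 12 for BT-20 (from 75), and 140, 36 and 437 for the stomach difference (from 2). All groups in 1 fit gave 1943 genes for the breast difference (from 3336), and DESeq2 gave 1830 for the trametinib difference in set 1 (from 978). Without 1 library the counts reached 882 for SW620, 2108 for NCI-N87, 1315 for the stomach difference and 2439 for the trametinib difference in set 1.

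Same-numbered libraries did not deviate together: in no comparison did all 3 correlations pass 0.1 (range −0.27 to 0.28), and in none did every library correlate best with its own number, so the numbers were not taken as pairs. With the replicate block, 2 members were called for the trametinib difference in set 1 (from 4, with 429 genes), and BT-20 had 5 genes called. TUBA1C in SW48, TUBB in SW620 and the line difference of TUBA1B lost their palbociclib calls, and TUBA4A its call between the drugs in SW620. TUBA1A and TUBB4B in SW48 (7 members in place of 5) and TUBB2B in SW620 gained a call between the drugs. Low counts limit TUBB6 in SW48 and TUBB2B in BT-20, BT-474 and MKN-45.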
